A study of Arabidopsis thaliana with 9 samples.

Results

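Roots of an Arabidopsis thaliana line overexpressing SCL3 (SCL3 OE) were compared with wild-type Col-0 roots, using the 3 arrays titled SCL3 OE and the 3 titled Col-0 of the 9 arrays in the series. Both groups were whole roots in the Col-0 ecotype at 7 days after germination, from plants on MS medium under 16 h of light and 8 h of dark at 22 °C. They differ by label only in the SCL3 transgene, whose promoter and number of lines are not given in the sources used here. The remaining 3 arrays, of scl3, a mutant without SCL3 function (allele scl3-1), were used for the spread between replicates and, where named, as values beside a result. Each array is an Affymetrix ATH1 array, which reports 1 linear signal intensity per probe set, and all 22746 plant probe sets belonged to the comparison. The number of arrays, not a read depth, limits the precision.

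SCL3 is a GRAS-family regulator of transcription. In the root it is known for relaying gibberellin signals, where it opposes the DELLA repressors, and for controlling elongation and cell division in the ground tissue, the layers of cortex and endodermis. Gibberellin is bound by the GID1 receptors, after which the DELLA proteins are marked for breakdown by F-box proteins such as SLY1 and SLY2.

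The annotation used here named no probe set for SCL3, so the overexpression could not be checked by gene name. An unnamed probe set, chosen after its values were seen, had signals of 3636, 3833 and 3542 in SCL3 OE, against 748, 770 and 561 in Col-0, and at most 23.1 in scl3. Its log2 change in SCL3 OE was 2.42 ± 0.22 (SE, limma adjusted p = 0.00822) against all 3 Col-0 arrays and 2.27 ± 0.15 against Col-0 replicates 1 and 2.

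The 3 SCL3 OE arrays were alike and the 3 Col-0 arrays were not. Over all plant probe sets, SCL3 OE arrays correlated at 0.962 to 0.969 with one another and at 0.936 to 0.944 with Col-0 replicates 1 and 2, but at only 0.829 to 0.833 with Col-0 replicate 3. These correlations run across probe sets, which are not replicates. The median standard deviation of a tested probe set was 0.12 log2 units among the SCL3 OE arrays and 0.46 among the 3 Col-0 arrays, and 0.10 between Col-0 replicates 1 and 2. The arrays were also clustered on the control RNAs spiked into each sample, with the number of sets fixed at 3 beforehand. Col-0 and scl3 replicates 1 and 2 formed one set, their replicates 3 another, and the SCL3 OE arrays a set of their own. In both comparisons below, the genotype of SCL3 OE and its array set cannot be told apart.

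Col-0 replicate 3 carried leaf transcripts. The summed signal of the 11 measured leaf and photosynthesis genes was 3723, 3426 and 2959 in SCL3 OE, against 1153, 1397 and 140540 in Col-0. RCA, the activase of the carbon-fixing enzyme Rubisco, had signals of 1131, 987 and 875 in SCL3 OE, against 254, 301 and 22981 in Col-0. All 3 SCL3 OE values of RCA thus lay above Col-0 replicates 1 and 2 and far below replicate 3. For this reason changes below are given in both ways, against all 3 Col-0 arrays and against Col-0 replicates 1 and 2 only. A probe set was called when its limma p, adjusted over the 13647 probe sets bright enough to test, was under 0.05. In whole roots, fewer cells of a type and less RNA per cell cannot be told apart.

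**Figure D1:**
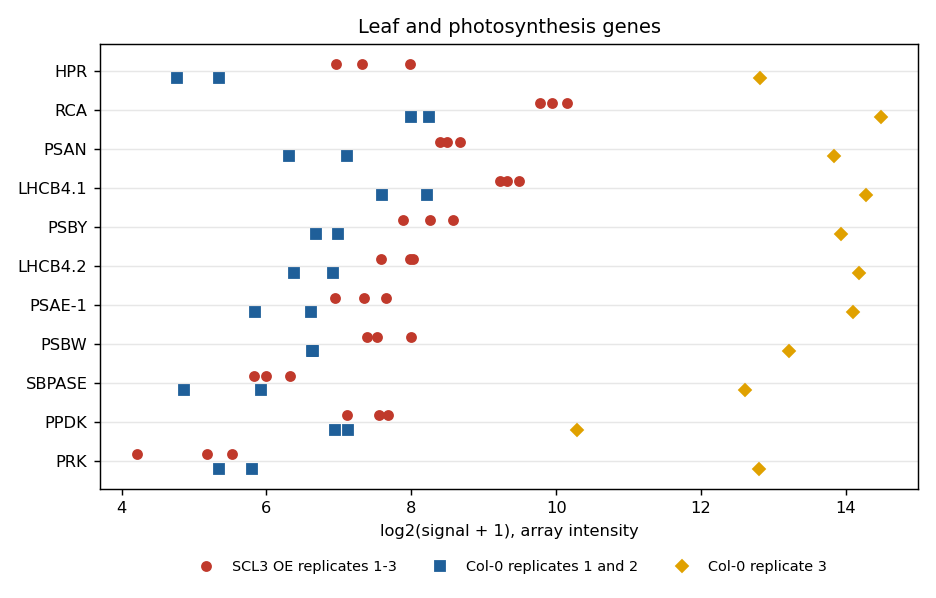
The 11 measured leaf and photosynthesis genes, with log2(signal + 1) on the horizontal axis and 1 point per array. The SCL3 OE points lie close to Col-0 replicates 1 and 2 and mostly to their right, and Col-0 replicate 3 lies far to the right of both in every gene.

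The leaf genes were also not level between SCL3 OE and the 2 cleaner Col-0 arrays. Against Col-0 replicates 1 and 2, 8 of the 11 were called higher in SCL3 OE and 0 lower, where 19.8% of all tested probe sets were called higher. Their median log2 change was 1.22 beside 0.02 for all tested probe sets. The brightness filter used the mean over all arrays, including replicate 3 of Col-0 and scl3. A leaf gene could thus be tested because of arrays that this comparison leaves out, so the 19.8% is not a like background. PRK passed the cutoff of 6.65 with a mean log2 signal of 6.77. Its means were 4.97 in SCL3 OE and 5.57 in Col-0 replicates 1 and 2. RCA had a log2 change of 1.84 ± 0.21 (SE, adjusted p = 4.31e-05). HPR, the hydroxypyruvate reductase of photorespiration, had signals of 252, 123 and 159 in SCL3 OE, against 26.3, 39.5 and 7227 in Col-0, and its change without replicate 3 was 2.37 ± 0.39 (adjusted p = 0.000604). The antenna protein LHCB4.1 changed by 1.43 ± 0.17 (adjusted p = 7.56e-05). PRK, the phosphoribulokinase of the Calvin cycle, chosen after its values were seen, was not called, at 35.2, 45.2 and 17.6 in SCL3 OE, against 39.6 and 54.7 in Col-0 replicates 1 and 2. Against all 3 Col-0 arrays 0 of the 11 were called and their median was -0.96, beside 0.13 for all tested probe sets.

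The number of transcripts called depended on the replicate 3 arrays in the fit, of Col-0 and of scl3. Against all 3, 164 of 13647 probe sets (1.2%) were called, 60 higher (0.44%) and 104 lower (0.762%) in SCL3 OE. Against replicates 1 and 2, 5182 (38%) were called, 2697 higher (19.8%) and 2485 lower (18.2%). That fit also left out scl3 replicate 3, which otherwise shares in the estimate of spread. All 164 kept their sign and their call in the second comparison. Most of the added calls were small, with a median size of 0.58 log2 units over the 5182, against 1.54 over the 164. At least 2-fold, 402 probe sets were higher (2.95%) and 556 lower (4.07%) without replicate 3. The largest changes lay on the low side, with 7 called probe sets at least 8-fold higher and 57 at least 8-fold lower. The sign of the change differed between the comparisons for 4069 tested probe sets, 829 of them called without replicate 3. The count against all 3 Col-0 arrays fell to 5, 6 and 4 without SCL3 OE replicate 1, 2 and 3, alike for each. It was 7 and 38 without Col-0 replicate 1 and 2. Without Col-0 replicate 3, but with scl3 replicate 3 still in the fit, it was 258. The count against all 3 Col-0 arrays was 0 in limma with array set as a random block, where 250 probe sets had an unadjusted p under 0.05. With SCL3 OE alone in its set, that fit compares whole sets, so its 0 cannot judge the 164 calls.

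**Figure D2:**
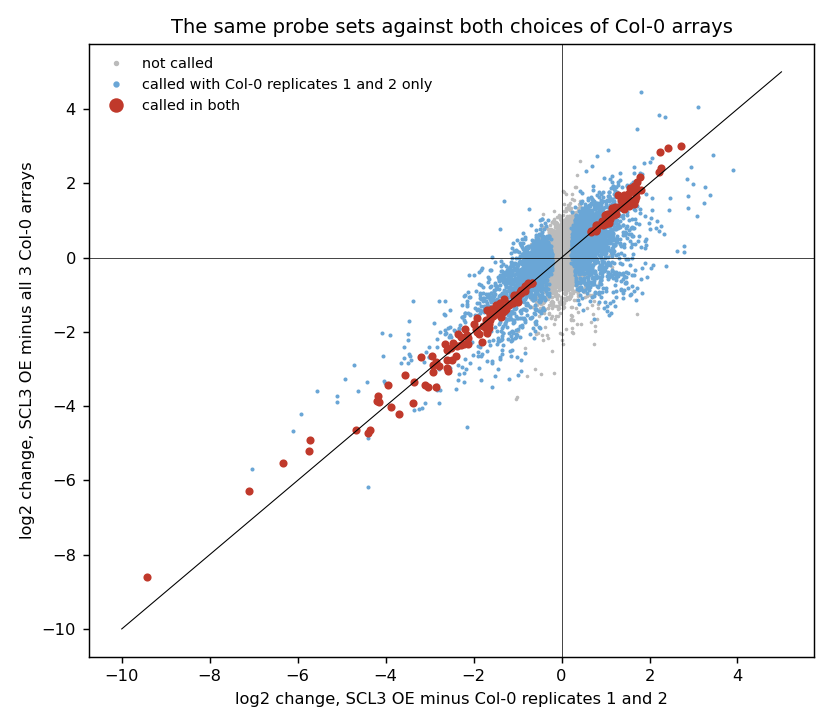
Log2 change of each tested probe set against Col-0 replicates 1 and 2 (horizontal) and against all 3 Col-0 arrays (vertical), with the line of equal change. The 164 probe sets called in both lie close to the line, while many of those called only without replicate 3 lie off it and some cross 0.

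Part of what changed without replicate 3 also moves with leaf transcripts in arrays that the difference does not use. The scl3 arrays show the same split as Col-0, with summed leaf signals of 1165 and 1560 in replicates 1 and 2 and of 135846 in replicate 3. Of the 402 probe sets at least 2-fold higher in SCL3 OE, 209 (52.0%) were at least 2-fold above in scl3 replicate 3 relative to scl3 replicates 1 and 2, where 11.5% of all tested probe sets were. Of the 556 at least 2-fold lower, 248 (44.6%) were at least 2-fold below in scl3 replicate 3, against 23.9% of all tested. In the opposite direction, 115 of the 556 (20.7%) were at least 2-fold above, against 11.5% of all tested, so the lower set exceeded the background both ways. Calls against all 3 Col-0 arrays cannot be read in this way, since that fit counts a shift in replicate 3 as spread. The part of leaf tissue in the SCL3 OE changes was not tested.

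Named genes that were called in both comparisons and whose groups did not overlap numbered 76, with 26 higher and 50 lower in SCL3 OE. Without any call, the groups did not overlap in 19.4% of tested probe sets on the higher side and 8.63% on the lower side. The 15 highest and the 15 lowest by the smaller of both changes are described next. For these 30 genes the scl3 mean of replicates 1 and 2 stayed within 1 log2 unit of the Col-0 mean, with differences from -0.84 to 0.46. The share of all tested probe sets within that bound was not counted. Over all plant probe sets these scl3 and Col-0 arrays correlated at 0.959 to 0.962, so the closeness need not be particular to these genes.

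The gene with the largest rise among them was AT4G07820, whose product the annotation used here does not name. Its signals were 2887, 2634 and 3242 in SCL3 OE, against 348, 855 and 181 in Col-0, and the change without replicate 3 was 2.41 ± 0.28 log2 units (SE, adjusted p = 5.69e-05). SWEET3, a member of the SWEET family of sugar transporters, had signals of 458, 450 and 401 in SCL3 OE, against 85.5, 98.0 and 24.8 in Col-0. Its Col-0 values were dim and lay below every SCL3 OE value, with a change of 2.24 ± 0.16 without replicate 3 (adjusted p = 2.21e-06), or 1.92 with an offset of 32 in place of 1. IVD, the isovaleryl-CoA dehydrogenase of leucine breakdown, was even in both groups at 1983, 1986 and 2086 in SCL3 OE, against 562, 696 and 716 in Col-0. Its changes of 1.62 ± 0.18 and 1.69 ± 0.11 with and without replicate 3 were almost the same, as Col-0 replicate 3 lay with the other Col-0 arrays.

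MGL, the methionine gamma-lyase that splits methionine on a path to isoleucine, had signals of 800, 738 and 877 in SCL3 OE, against 256, 358 and 351 in Col-0. Its change was 1.41 ± 0.15 without replicate 3 and 1.33 ± 0.22 (adjusted p = 0.0375) with it. UGT73B1, a glycosyltransferase of a family that acts on small molecules such as flavonoids, had signals of 917, 1172 and 1132 in SCL3 OE, against 361, 409 and 352 in Col-0, with a change of 1.47 ± 0.13 (adjusted p = 6.25e-06) without replicate 3. In both genes the lowest SCL3 OE array stood above the highest Col-0 array by more than the range within either group.

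The remaining 10 of the 15 are known here by gene number only. The brightest were AT3G07720 at 2773, 2651 and 3385 in SCL3 OE, against 885, 910 and 621 in Col-0, and AT5G65380 at 2547, 2208 and 2528 in SCL3 OE, against 835, 826 and 1084 in Col-0. AT2G40230 had 886, 1014 and 1106 in SCL3 OE, against 287, 348 and 185 in Col-0. AT4G25250 was the most even in SCL3 OE, at 929, 916 and 937, against 343, 388 and 233 in Col-0. Over the 15 genes the change without replicate 3 ran from 1.34 to 2.41 log2 units and the adjusted p from 9.46e-07 to 0.000166, and with replicate 3 the adjusted p ran from 0.0107 to 0.0405.

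**Figure D3:**
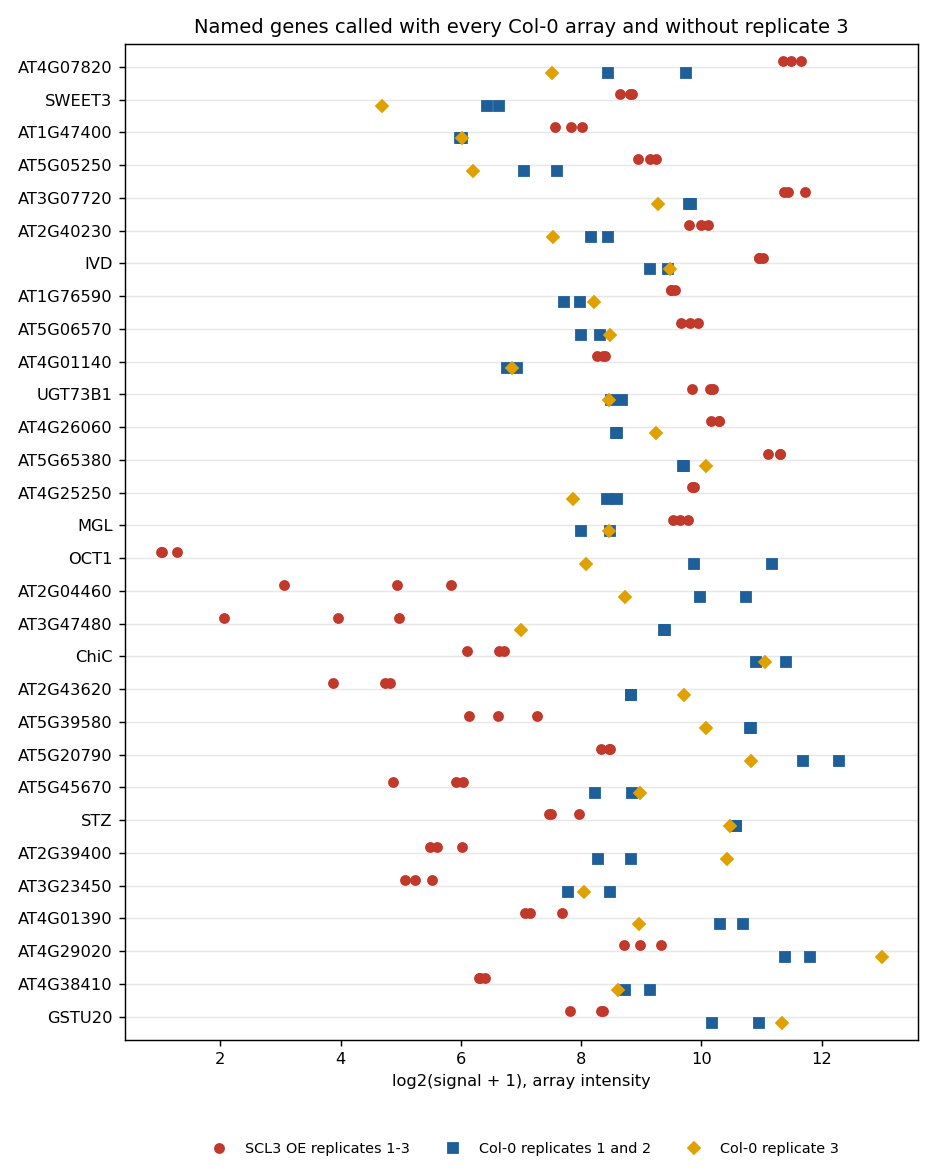
Log2(signal + 1) on each array for the 15 highest and 15 lowest named genes called in both comparisons, with SCL3 OE above Col-0 in each row. The groups are apart in every row by the rule that chose the genes, and SCL3 OE lies to the right of Col-0 in the upper 15 rows and to the left in the lower 15.

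Among the 15 falling genes the change without replicate 3 ran from -9.42 to -2.39 log2 units. OCT1, an organic cation transporter, was at the floor of the array in SCL3 OE, with signals of 1.4, 1.0 and 1.0, against 2297, 944 and 270 in Col-0. The fitted change of -9.42 ± 0.40 without replicate 3 depends on that floor and was -5.51 with an offset of 32. ChiC, a chitinase that breaks down chitin of fungal walls, had signals of 67.3, 98.0 and 105 in SCL3 OE, against 2718, 1921 and 2134 in Col-0. Col-0 replicate 3 lay between the other Col-0 arrays here, and the change was -4.64 ± 0.21 with it and -4.68 ± 0.19 without it (adjusted p = 0.000342 and 3.23e-08), about 25.6-fold lower in the second case.

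STZ, a zinc finger repressor of transcription induced by salt, cold and many stresses, had 249, 181 and 176 in SCL3 OE, against 1532, 1529 and 1431 in Col-0. Both groups were tight, and the change was -2.93 ± 0.14 (adjusted p = 1.17e-07) without replicate 3. GSTU20, a tau-class glutathione S-transferase, had 321, 329 and 225 in SCL3 OE, against 1986, 1156 and 2605 in Col-0, with a change of -2.39 ± 0.22 (adjusted p = 1.05e-05) without replicate 3. AT4G29020, known by number only, was the brightest falling gene that is highest in Col-0 replicate 3, at 642, 503 and 420 in SCL3 OE, against 3572, 2687 and 8246 in Col-0.

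Some signals dropped close to background. A probe set under 50 in all SCL3 OE arrays and over 200 in all Col-0 arrays was found 5 times, and 4 of these had 1 named gene, which were OCT1, AT2G43620, AT3G23450 and AT5G53880. With Col-0 replicates 1 and 2 only, there were 19, of which 11 had 1 named gene. The reverse, under 50 in the Col-0 arrays and over 200 in all SCL3 OE arrays, was found 0 times in either case. AT2G43620 had 27.1, 25.7 and 13.7 in SCL3 OE, against 454, 456 and 841 in Col-0, and AT3G23450 had 45.0, 32.5 and 36.8 in SCL3 OE, against 354, 219 and 263 in Col-0.

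Most of the measured genes of phosphate starvation fell. Only 8 of the 66 genes found for this list had a probe set named here, so most of the response was not seen. Plants short of phosphate raise a set of transporters, phosphatases and lipid enzymes, and several genes known for this response were low in SCL3 OE roots. Of 7 tested members, 0 were called higher and 4 lower against all 3 Col-0 arrays (background 0.762% lower), and 5 lower without replicate 3 (background 18.2%), with a median change of -2.13 beside 0.02 for all probe sets. The 4 were OCT1, AT2G04460, AT5G20790 and AT1G08310. AT5G20790 had signals of 355, 321 and 353 in SCL3 OE, against 4989, 3288 and 1806 in Col-0, a change of -3.56 ± 0.23 without replicate 3 (adjusted p = 1.04e-06). AT2G04460 had 56.1, 29.6 and 7.3 in SCL3 OE, against 1702, 1010 and 423 in Col-0, and AT1G08310 had 156, 126 and 173 in SCL3 OE, against 751, 584 and 996 in Col-0. All gene lists of this report were chosen with earlier results of these data known. A count above the background is therefore no test of a list.

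LPR2, a ferroxidase by which the root tip senses low phosphate, was the fifth. It had 243, 191 and 228 in SCL3 OE, against 441, 545 and 942 in Col-0, with a change of -1.16 ± 0.14 (adjusted p = 8.56e-05) without replicate 3 and an adjusted p of 0.0668 with it. Its relative LPR1 was not called, with a change of -0.28 without replicate 3.

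The list of jasmonate, salicylate and defence genes, likewise chosen with earlier results known, also lay low. Of 12 tested members, 0 were higher and 4 lower against all 3 Col-0 arrays (background 0.762% lower). Without replicate 3 all 12 were lower (background 18.2%), with a median of -1.57. After quantile normalization 10 were lower (background 17.5%) and 0 higher (19.2%), and LCR68 (-0.10, adjusted p = 0.256) and SAG101 (-0.56, 0.081) did not pass. The 4 were ChiC, AT2G43620, AT5G39580 and AT2G43590. AT5G39580 had 97.8, 152 and 69.3 in SCL3 OE, against 1813, 1799 and 1081 in Col-0, and a change of -4.14 ± 0.24 without replicate 3 (adjusted p = 3.78e-07). AT2G43590 had 1536, 1916 and 1740 in SCL3 OE, against 5386, 5820 and 3165 in Col-0.

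PRX52, a cell wall peroxidase of lignin formation, was nearly absent from SCL3 OE at 4.2, 5.9 and 9.6, against 1047, 872 and 56.7 in Col-0. Col-0 replicate 3 was far below the other Col-0 arrays, and PRX52 was called without it (-7.05 ± 0.29, adjusted p = 3.77e-08, and -4.68 with an offset of 32) and not with it (-5.70 ± 1.45, adjusted p = 0.124). CHI, a chitinase, had 294, 396 and 375 in SCL3 OE, against 1227, 1608 and 59.1 in Col-0, so that SCL3 OE lay between the Col-0 arrays when all 3 were used. In the small peroxidase family the members did not go one way. Prx37, a class III peroxidase, was lower at -1.18 ± 0.14 (adjusted p = 6.48e-05) and AT5G64120 was higher at 1.65 ± 0.11 (adjusted p = 1.36e-06), both without replicate 3.

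Genes of the elicitor, touch and calcium list, which respond within minutes to handling or microbial signals, were low or not called. STZ was the 1 of 9 called against all 3 Col-0 arrays (background 0.762% lower). Without replicate 3, 5 were lower and 0 higher, beside 18.2% and 19.8% of all probe sets, with a median of -0.48. CML38, a calmodulin-like calcium sensor, had 36.3, 17.4 and 42.1 in SCL3 OE, against 169, 259 and 1122 in Col-0, a change of -2.77 ± 0.35 (adjusted p = 9.82e-05) without replicate 3, or -1.94 with an offset of 32. WRKY53, which regulates transcription in ageing leaves and in immunity, had 38.9, 108 and 66.0 in SCL3 OE, against 251, 226 and 96.6 in Col-0, so its groups overlapped only through replicate 3. CML41, another calmodulin-like protein, fell by 1.19 (SE 0.19, adjusted p = 0.00052) without replicate 3, and PUB24, a ubiquitin ligase of immune signalling, fell by 0.48 (adjusted p = 0.0131). WRKY22, with 0.50 and no call as deposited, was called higher after quantile normalization (0.62).

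**Figure D4:**
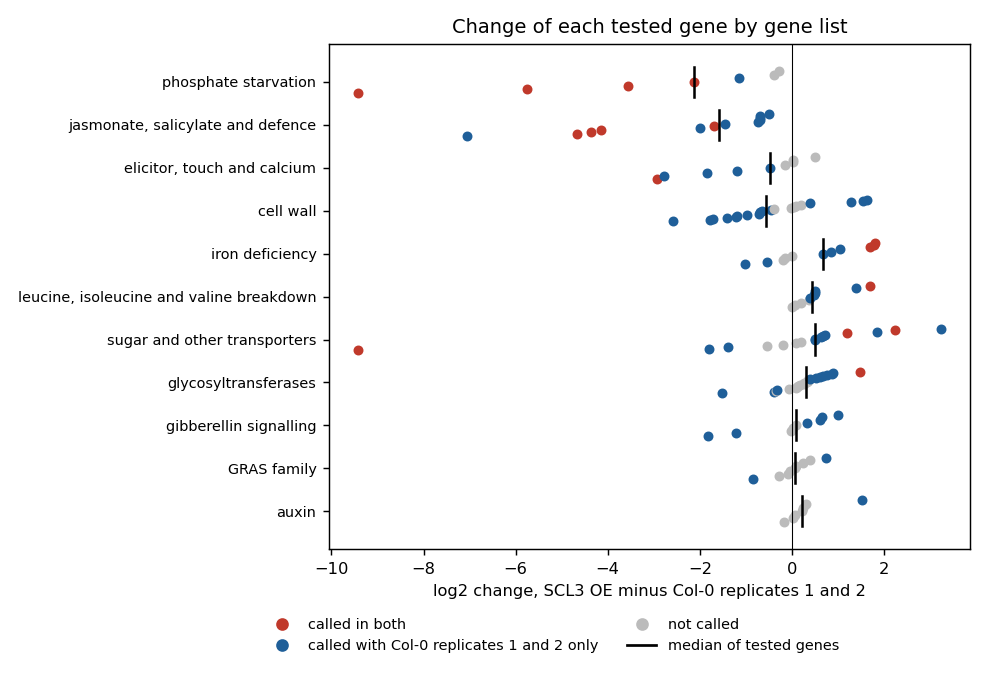
Log2 change against Col-0 replicates 1 and 2 for each tested gene of 11 lists, with a bar at each list's median. The phosphate, defence, elicitor and cell wall medians lie at -2.13, -1.57, -0.48 and -0.56, and the iron deficiency median lies at 0.67.

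Among wall-loosening genes the changes went in both directions. Expansins loosen the wall of a growing cell without cutting it, and xyloglucan endotransglucosylases (XTH) cut and rejoin the xyloglucan that links its cellulose fibres. Of 20 tested members of the cell wall list, 0 were called against all 3 Col-0 arrays. Without replicate 3, 11 were lower and 4 higher, beside 18.2% and 19.8% of all probe sets, so the higher count was at the background. The median was -0.56. XTH26, a root hair XTH, had 98.5, 96.5 and 104 in SCL3 OE, against 555, 650 and 141 in Col-0, a change of -2.58 ± 0.13 (adjusted p = 1.39e-07) without replicate 3. XTH20 had 248, 300 and 238 in SCL3 OE, against 933, 872 and 161 in Col-0, and fell by 1.79 (SE 0.12) in that comparison.

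XTH21 lay on the other side, at 346, 367 and 357 in SCL3 OE, against 123, 107 and 79.1 in Col-0. Its groups did not overlap, and its change was 1.62 ± 0.16 (adjusted p = 1.46e-05) without replicate 3, while it was not called with it (SE 0.38, adjusted p = 0.0752). XTH16 was higher by 1.54 ± 0.16 without replicate 3, but its highest value was 1169 in Col-0 replicate 3. Of the 8 tested XTH genes, 5 were lower (background 18.2%) and 3 higher (19.8%) without replicate 3.

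The expansins divided in the same comparison into 7 lower and 2 higher of 11 tested, where the backgrounds were 18.2% and 19.8%. EXPB3, a beta-expansin, had 706, 660 and 473 in SCL3 OE, against 2186, 1781 and 722 in Col-0, and EXPA4 had 1071, 1077 and 1143 in SCL3 OE, against 2842, 2200 and 870 in Col-0. EXPB1, a beta-expansin, had 1321, 989 and 1153 in SCL3 OE, against 450, 488 and 116 in Col-0, and was higher by 1.29 ± 0.13 (adjusted p = 1.74e-05) without replicate 3. The root hair expansins EXPA18 and EXPA7 had changes of -0.59 (adjusted p = 0.000504) and 0.37 (0.0488), and EXPA7 was not called after quantile normalization. ATPMEPCRB, a pectin methylesterase, was called in both comparisons, with 62.6, 69.4 and 62.4 in SCL3 OE, against 311, 329 and 240 in Col-0 (-2.15 ± 0.22 and -2.29 ± 0.18).

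Iron deficiency genes were among those that rose, though not as a whole list. Roots short of iron raise genes for uptake, for small signalling peptides and for secreted coumarins. Of 11 tested members, 3 were higher and 0 lower against all 3 Col-0 arrays (background 0.44% higher). The 3 were AT1G47400, AT5G05250 and AT3G07720. Without replicate 3, 6 were higher and 2 lower, beside 19.8% and 18.2% of all probe sets, with a median of 0.67. The lower count was at the background. AT1G47400 had 189, 258 and 228 in SCL3 OE, against 63.6, 62.2 and 63.7 in Col-0, where replicate 3 matched the others, and a change of 1.81 ± 0.24 without replicate 3. AT5G05250 had 494, 608 and 564 in SCL3 OE, against 193, 132 and 72.6 in Col-0.

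The list did not move as one, though its 2 lower members were at the background of 18.2%. UGT72E1, a glucosyltransferase of phenylpropanoids, was higher without replicate 3 (0.67 ± 0.09, adjusted p = 0.000178), and AT3G13610 was lower there (-0.55 ± 0.09, adjusted p = 0.000484). PYE, a transcription factor of the iron response, was not called, at 218, 228 and 206 in SCL3 OE, against 213, 224 and 168 in Col-0. BHLH101, another transcription factor of that response, was too dim for the test, with 214, 187 and 197 in SCL3 OE, against 54.8, 70.5 and 1.8 in Col-0. It was chosen after its values were seen, and without the filter on dim probe sets its change was 1.66 (adjusted p = 0.000495) without replicate 3 and was not called with it (adjusted p = 0.573).

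Genes for the breakdown of leucine, isoleucine and valine leaned to the higher side. IVD was the 1 of 10 tested members called against all 3 Col-0 arrays (background 0.44% higher). Without replicate 3, 6 were higher and 0 lower, beside 19.8% and 18.2% of all probe sets, with a median of 0.44. MCCA and MCCB, the subunits of the methylcrotonyl-CoA carboxylase that follows IVD in leucine breakdown, had changes of 1.39 ± 0.14 (adjusted p = 2.34e-05) and 0.50 ± 0.15 (0.0209). MCCA had signals of 1197, 1271 and 1328 in SCL3 OE, against 398, 582 and 975 in Col-0. ALDH6B2, a methylmalonate semialdehyde dehydrogenase of valine breakdown, had 3639, 3298 and 3282 in SCL3 OE, against 2443, 2383 and 1902 in Col-0, a change of 0.50 ± 0.08 (adjusted p = 0.000615). The Col-0 arrays lay below every SCL3 OE array in MCCA and in ALDH6B2, and with replicate 3 neither passed (adjusted p = 0.159 and 0.209).

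Among the 16 tested transporters, 2 were higher and 1 lower against all 3 Col-0 arrays, where 0.44% and 0.762% of all probe sets were. Without replicate 3, 9 were higher (background 19.8%) and 3 lower, with a median of 0.50. The 3 lower are near the background of 18.2%. The organic cation transporters did not go together, since OCT1 fell while OCT5, chosen after its values were seen, had 561, 736 and 669 in SCL3 OE, against 324, 245 and 206 in Col-0 (1.36 ± 0.21, adjusted p = 0.0299, and 1.21 ± 0.15). AT3G45700 had 1684, 1616 and 1405 in SCL3 OE, against 436, 437 and 181 in Col-0, a change of 1.84 ± 0.11 without replicate 3 (adjusted p = 3.78e-07) and an adjusted p of 0.0554 with it. Its neighbour AT3G45680 was lower without replicate 3, by -1.39 ± 0.17.

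The SWEET sugar transporters differed from one another. SWEET11, which exports sucrose from cells that load the phloem in leaves, had 1635, 1842 and 2212 in SCL3 OE, against 192, 204 and 8180 in Col-0. It had the largest rise among the named transporters without replicate 3, at 3.24 ± 0.13 (adjusted p = 3.31e-08), and was 5.72 log2 units above in scl3 replicate 3 relative to scl3 replicates 1 and 2, like the leaf genes. SWEET3 was 0.07 above in that relation. SWEET13 had 68.6, 66.5 and 63.0 in SCL3 OE, against 261, 204 and 52.7 in Col-0, and fell by 1.79 (SE 0.18) without replicate 3.

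Of 22 tested glycosyltransferases, UGT73B1 was called against all 3 Col-0 arrays (background 0.44% higher). Without replicate 3, 8 were higher and 3 lower, near the background of 18.2% on the lower side and above 19.8% on the higher. UGT74D1, which glucosylates auxins, had 1809, 2256 and 2013 in SCL3 OE, against 1281, 917 and 683 in Col-0, a change of 0.90 ± 0.14 (adjusted p = 0.000472) without replicate 3. UGT76D1, which acts on dihydroxybenzoic acids, had 84.4, 113 and 103 in SCL3 OE, against 307, 268 and 49.5 in Col-0, and fell by 1.52 (SE 0.17). Among 10 tested glutathione S-transferases, GSTU20 fell in both comparisons, and 2 were higher and 2 lower without replicate 3, near the backgrounds of 19.8% and 18.2%.

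Gibberellin signalling, the pathway of SCL3 itself, had members on both sides. Of 9 tested members 0 were called against all 3 Col-0 arrays, where 1.2% of all probe sets were. Without replicate 3, 4 were higher and 2 lower, beside 19.8% and 18.2% of all probe sets, with a median of 0.09. GID1A, a gibberellin receptor, had 580, 541 and 584 in SCL3 OE, against 304, 267 and 1450 in Col-0, and a change of 0.99 ± 0.11 (adjusted p = 4.42e-05) without replicate 3. The receptor GID1C had 146, 175 and 170 in SCL3 OE, against 97.2, 116 and 321 in Col-0 (0.61 ± 0.19, adjusted p = 0.0272). Both receptors were higher in Col-0 replicate 3 than in any SCL3 OE array, and GID1B had 0.09 without a call.

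SLY2, the F-box protein that marks DELLA proteins for breakdown, had 64.9, 76.6 and 56.4 in SCL3 OE, against 242, 230 and 102 in Col-0. Its groups did not overlap, and its change was -1.83 ± 0.18 (adjusted p = 1.8e-05) without replicate 3. XERICO, a RING protein raised by DELLA proteins, had 2027, 1582 and 1677 in SCL3 OE, against 1092, 1136 and 1540 in Col-0, a change of 0.65 ± 0.11 (adjusted p = 0.000757) there. SPY, an enzyme that glycosylates DELLA proteins, had 0.34 (adjusted p = 0.0457) and was not called after quantile normalization (adjusted p = 0.0747). JKD, a zinc finger protein that works with SCARECROW and SHORT-ROOT in the ground tissue, had 160, 184 and 206 in SCL3 OE, against 92.4, 115 and 80.4 in Col-0, with a change of 0.82 ± 0.19 (adjusted p = 0.00636) without replicate 3.

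Most other members of the GRAS family were not called, with 1 of 9 tested higher and 1 lower without replicate 3, below the backgrounds of 19.8% and 18.2%. AT5G66770 had 170, 152 and 158 in SCL3 OE, against 103, 87.3 and 249 in Col-0 (0.75 ± 0.18, adjusted p = 0.0072 without replicate 3), and AT1G63100 changed by -0.84 ± 0.25 (adjusted p = 0.0231). Of 7 tested auxin genes, GH3.3, which joins auxin to amino acids, was the 1 called, at 154, 272 and 233 in SCL3 OE, against 71.1, 75.5 and 381 in Col-0 (1.53 ± 0.25, adjusted p = 0.000601 without replicate 3). That count was below the background, since 38% of all tested probe sets were called without replicate 3. Among markers of root cells, both cortex genes changed in opposite directions without replicate 3, AT1G09750 by 1.17 ± 0.22 (adjusted p = 0.00173) and AT1G62500 by -1.03 ± 0.22 (0.00342). LHW, a transcription factor of the vascular cylinder and the 1 tested stele gene, was lower there by -0.58 (adjusted p = 0.00128). AUR2, an Aurora kinase, was the 1 of 4 cell cycle genes called (-0.46, adjusted p = 0.0197), also below the background of 38%.

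The lists of other hormones, of lignin and suberin and of cytochrome P450 gave 0 calls against all 3 Col-0 arrays, and the calls given next are without replicate 3. EIN3, the central transcription factor of ethylene signalling, had 1675, 1842 and 1945 in SCL3 OE, against 1154, 1130 and 2299 in Col-0. It was the 1 of 5 called among cytokinin, ethylene and abscisic acid genes as deposited (0.67, adjusted p = 0.00027), below the background of 38%. After quantile normalization 3 of the 5 were called higher (background 19.2%) and 1 lower (17.5%), and the median of the list moved to 0.38 from 0.03 as deposited. HCT, an acyltransferase of lignin synthesis, had 4650, 4448 and 4304 in SCL3 OE, against 3369, 3214 and 3618 in Col-0, a change of 0.44 (adjusted p = 0.000856). UGT72E1 was the other of 5 tested in its list that was called, near the background of 38%. Of 9 tested cytochrome P450 genes, 2 were higher (background 19.8%) and 3 lower (18.2%), led by CYP71B6 at 1398, 1756 and 1593 in SCL3 OE, against 3331, 4118 and 737 in Col-0 (-1.23, adjusted p = 4.75e-05).

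The brightest transcripts were lower in SCL3 OE as deposited. The highest plant signal on an array was 28468, 24908 and 24106 in SCL3 OE, against 47820, 59917 and 38841 in Col-0. Without replicate 3, the median change was between -0.06 and 0.08 up to a mean log2 level of 12, then -0.17, -0.45 and -0.79 in the 3 brightest classes, and all 28 probe sets above a level of 14 were called lower. Quantile normalization, which gives each array the same spread of signals, brought these 3 medians to -0.03, -0.07 and -0.05. Of the 716 tested probe sets above a level of 12, 379 were lower and 73 higher as deposited, against 191 and 158 after quantile normalization.

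**Figure D5:**
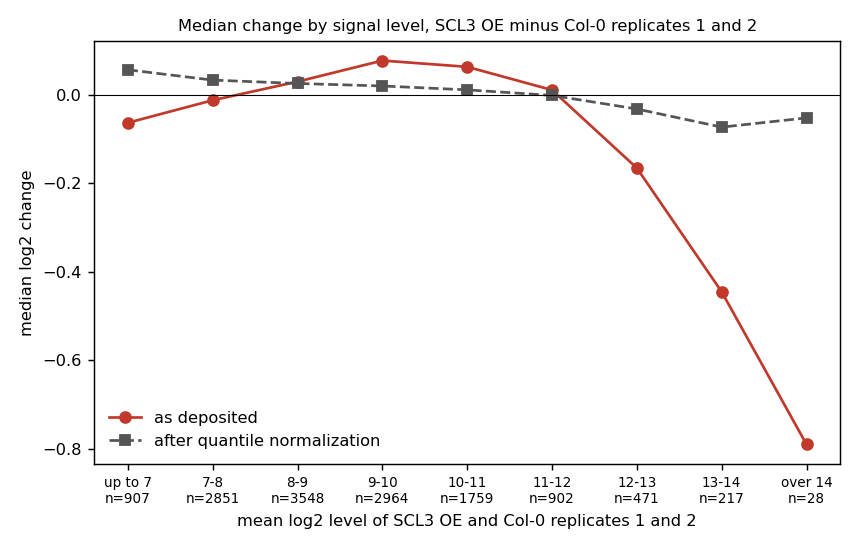
Median log2 change against Col-0 replicates 1 and 2 in 9 classes of mean signal level, with n probe sets each, as deposited and after quantile normalization. The deposited values drop to -0.79 in the brightest class and the normalized ones stay between -0.07 and 0.06.

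Named bright root genes followed this pattern. PYK10, the abundant root beta-glucosidase of endoplasmic reticulum bodies, had 19104, 17762 and 16894 in SCL3 OE, against 31733, 36754 and 17214 in Col-0. Its change of -0.93 ± 0.09 (adjusted p = 9.99e-06) without replicate 3 was 0.00 after quantile normalization. That method gives equal ranks the same value, so the 0.00 does not show that the level of PYK10 was unchanged. JAL34, a jacalin lectin that partners PYK10, turned from -0.29 (adjusted p = 0.011) as deposited to 0.32 (adjusted p = 0.02) after it. GAPC2, a glycolytic enzyme often used as a reference, was called lower in both comparisons as deposited, at 13038, 11756 and 11992 in SCL3 OE, against 19785, 20898 and 19335 in Col-0. Its change without replicate 3 was -0.73 ± 0.08 as deposited and -0.22 (adjusted p = 0.0097) after quantile normalization, and with replicate 3 the call was lost after it (-0.20, adjusted p = 0.422). The 30 named genes, chosen for their calls in both comparisons as deposited, kept their sign and call after quantile normalization in the comparison without replicate 3. Examples are ChiC (-4.67), STZ (-2.98) and IVD (1.68).

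Several strong changes were called only without replicate 3, and the genes given here were chosen after their values were seen. AT5G38910 had 18.9, 23.3 and 16.6 in SCL3 OE, against 1470, 1028 and 34.0 in Col-0. BGLU25, a beta-glucosidase, had 1272, 1028 and 1042 in SCL3 OE, against 11667, 13185 and 659 in Col-0. LEA4-5, a late embryogenesis abundant protein of drought tolerance, had 44.3, 59.5 and 52.1 in SCL3 OE, against 825, 933 and 45.6 in Col-0. In each of these the SCL3 OE arrays lay near Col-0 replicate 3 and far below replicates 1 and 2, and the AT5G38910 groups did not overlap. With all 3 Col-0 arrays the log2 changes were -4.20 ± 1.95, -2.07 ± 1.36 and -2.65 ± 1.47 (SE), none called (adjusted p = 0.419, 0.608 and 0.522).

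APS4, an ATP sulfurylase of sulfate assimilation, went the other way, with 6244, 6541 and 7025 in SCL3 OE, against 1454, 1859 and 504 in Col-0. Every SCL3 OE value was above every Col-0 value, and the change of 2.00 ± 0.14 (adjusted p = 1.61e-06) without replicate 3 was 2.57 ± 0.72 (adjusted p = 0.159) with it, where the wider spread of Col-0 entered. CHLM, a methyltransferase of chlorophyll synthesis, had 761, 770 and 792 in SCL3 OE, against 191, 254 and 5272 in Col-0, the pattern of the leaf genes.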

How the data were processed

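Whole-root RNA of 9 samples was measured on ATH1 arrays. The authors deposited an intensity for each probe set on a linear scale, and the submitters' processing notes name MAS5 and version 1.1 of Affymetrix Expression Console. Array medians ran from 158.7 to 191.2, so values were used as deposited, as log2(signal + 1), which understates the changes of dim probe sets. The 64 control probe sets and the 9099 plant probe sets with a mean at or below the 40th percentile (6.65, a signal near 99.3) were left out of the tests. That mean was taken over all arrays of the series, also for the comparison without replicate 3. Groups and replicate numbers came from the titles, and the design text describes biological triplicates.

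limma 3.58.1 (R 4.3.3, lmFit and eBayes with an intensity trend, Benjamini-Hochberg over 13647 probe sets) was fitted to all 9 arrays by group, and again without Col-0 and scl3 replicate 3, so that scl3 shares the estimate of spread. SE is that of the log2 change. An exact 2-sided permutation test of 3 against 3 cannot go below p = 0.1 and was not used for calls. The fit was tested on simulated data. Deviations of SCL3 OE and Col-0 arrays of the same number correlated at -0.098, 0.070 and -0.085, so the numbers were not taken as pairs.

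One gene was given for 13513 plant probe sets, several for 503 and none for 8730. Of the first, 13436 were matched to RefSeq's TAIR10.1 table for symbols, and genes without a symbol there are given by number and no role. The members, the 25 gene lists and 32 families were chosen with earlier results of these data known, and PS2, CHI (in the flavonoid list) and an AP2/ERF pattern were dropped after the files showed that their symbols matched other genes. A listed gene counted as measured when a probe set was named with that 1 gene. In all 310 listed genes were measured and 218 tested. Of 57 lists and families, 19 had no measured gene, among them endodermis, root cap and gibberellin metabolism. Listed genes may also lie among the 8730 unnamed probe sets, so the array need not lack them. Named genes were the 15 highest and 15 lowest, by the smaller change, of those with 1 gene, called with the same sign in both comparisons and without overlap, plus up to 6 called members per list by smallest p without replicate 3, or the member with the smallest p where none was called. Further genes were picked with their values in view. The search of promoters for motifs was not run, and no sequence was used. Figures were drawn with matplotlib 3.10.9.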

Additional observations from a re-analysis of the deposited data

How the results depend on the processing

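The count of 164 calls against all 3 Col-0 arrays moved to 81 with only the SCL3 OE and Col-0 arrays in the fit. It moved to 4590 with the replicate 3 array set as a fixed term. With array set as a random block it was 0, where the correlation within sets was 0.91. That last fit compares whole sets, with SCL3 OE alone in its own, so it cannot judge the calls. Leaving out 1 array gave 4 to 258. The count of 164 stayed within 1.5 times with no filter (119), an offset of 32 (171), quantile normalization (192) and no variance trend (130). The count of 5182, without Col-0 and scl3 replicate 3, stayed within 1.5 times in the alternatives given here. It was 4862 to 5222 over no filter, the offset, quantile normalization, SCL3 OE and Col-0 arrays only and no trend. When 1 SCL3 OE array was left out as well, the count was 4104 to 5019. With replicate number as a block, a pairing that the data did not bear out, 205 probe sets were called. Over the 30 named genes, 235 of the values under alternatives against all 3 Col-0 arrays kept their call and 185 kept only their direction, and without replicate 3 all 300 kept both. These genes were chosen for being called in both comparisons, which partly fixes that outcome. No alternative without replicate 3 takes array set into account. A change near the floor of signal depends on the offset, and single probe sets had 3 arrays against 2 or 3. The causes were not tested.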

Other observations

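Genes that changed at least 2-fold without Col-0 replicate 3 were placed in the gene order of RefSeq's TAIR10.1 for the 467 with 1 gene and a place. Runs of 3 or more such genes with at most 3 protein-coding steps between neighbours numbered 2 and held 9 genes, all lower in SCL3 OE. The longer run had 6 genes on chromosome 2, AT2G43530, AT2G43535, AT2G43550, CHI, AT2G43590 and AT2G43620, with log2 changes of -1.69, -1.35, -1.14, -1.99, -1.70 and -4.36. The dim AT2G43530 and AT2G43620 had -1.14 and -3.18 with an offset of 32. AT2G43535 had signals of 2827, 3388 and 2708 in SCL3 OE, against 9358, 6098 and 3738 in Col-0. AT2G43550 had 460, 587 and 438 in SCL3 OE, against 1118, 1051 and 871 in Col-0. AT2G43530 had 42.4, 24.2 and 42.2 in SCL3 OE, against 153, 87.6 and 1139 in Col-0, with the highest value in the array that carried leaf transcripts.

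The other run lay on chromosome 1 and held AT1G26380, AT1G26390 and AT1G26420, with changes of -3.65, -5.10 and -3.01 without replicate 3, or -2.92, -3.92 and -2.25 with an offset of 32. Their SCL3 OE signals were near the floor. AT1G26390 had 39.7, 15.8 and 18.2 in SCL3 OE, against 801, 816 and 64.1 in Col-0. AT1G26410, which lies among them and was too dim for the test, had 4.2, 28.7 and 13.1 in SCL3 OE, against 478, 689 and 35.3 in Col-0, with an adjusted p of 7.82e-05 without the filter. All 4 were low in Col-0 replicate 3 as well, and none was called against all 3 Col-0 arrays. Whether probe sets of related neighbours pick up one another's transcripts was not tested, and these genes were chosen after their values were seen.

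Of 3 tested histone genes, 2 were called higher (background 19.8%) and 1 lower (18.2%) without replicate 3, with a median of 0.33. The lower one was HTB2, a histone H2B, with 942, 1042 and 1102 in SCL3 OE, against 2117, 2027 and 1243 in Col-0. Its change was -1.01 ± 0.09 (limma adjusted p = 8.89e-06) without replicate 3. The dim genes CML37 and EXLA3, a calmodulin-like protein and an expansin-like protein, were lower in SCL3 OE without replicate 3 and without the filter (limma adjusted p = 0.00447 and 0.00133), with signals too near the floor for a fold change. CML37 was at 1.6, 15.7 and 1.6 in SCL3 OE, against 65.9, 76.3 and 25.7 in Col-0.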
